A study of Homo sapiens with 2 samples.

Results

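The 9 genes described here encode the histone demethylase KDM1B, its paralog KDM1A and the proteins both enzymes are known to work with, and they were chosen by name from 19974 protein-coding genes on chromosomes 1 to 22 and X. They are KDM1B, KDM1A, GLYR1, NSD3, EHMT1, EHMT2, RCOR1, RCOR2 and RCOR3. The chromatin came from the breast cancer cell line MDA-MB-231, a triple-negative line made to express KDM1B with 3 copies of the FLAG epitope stably from the retroviral vector pOZ. An anti-FLAG ChIP library was set against an input library of sonicated chromatin from the same tagged cells, so both groups carry the transgene. Each group held 1 library, so no value has a replicate error, no difference between genes was tested, and chromatin of cells without the tag was not analysed here. Sequencing depth is unknown. Each peak carries the authors' log2 ratio of ChIP over input, and coordinates are hg38, printed as deposited.

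KDM1B, also called LSD2, is a flavin-dependent enzyme that removes mono- and dimethylation from H3K4, the lysine on which methylation marks promoters and enhancers. It is known to associate with actively transcribed gene bodies in a complex with GLYR1 (NPAC), which reads H3K36 methylation and stimulates the demethylase, with NSD3, which writes H3K36 methylation, and with EHMT1 (GLP) and EHMT2 (G9a), which mono- and dimethylate H3K9. KDM1A (LSD1) acts on the same H3K4 marks but works with the CoREST scaffolds RCOR1, RCOR2 and RCOR3, and KDM1B does not bind CoREST.

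A peak was assigned to a gene when its midpoint lay in the gene or within 5 kb of either end. By that rule all 9 genes had a peak, against 13485 protein-coding genes (67.5%). The 9 genes are long, with a median span of 64.2 kb against 24.2 kb for all protein-coding genes, and long genes offer more room for midpoints. Each gene was therefore ranked among the 500 protein-coding genes nearest to it in span. In those 9 sets of like-length genes 69.0% to 80.0% had a peak.

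Peaks covered the start of 4 of the 7 genes whose strand is given in the RefSeq table of promoters (GRCh38.p14), and these are shown with the start of KDM1B, which had none. The 4 were KDM1A, EHMT1, RCOR1 and RCOR3, and the peak covered all 250 bases before the start. Over all protein-coding genes listed there, 4806 of 22156 such windows (21.7%) were covered whole. RCOR3 has another listed start, whose window was covered over 22.8%. Capitals mark GGGCGG, the GC box, read on both strands with overlapping matches kept.
KDM1A (chr1:23019218-23019467, plus strand): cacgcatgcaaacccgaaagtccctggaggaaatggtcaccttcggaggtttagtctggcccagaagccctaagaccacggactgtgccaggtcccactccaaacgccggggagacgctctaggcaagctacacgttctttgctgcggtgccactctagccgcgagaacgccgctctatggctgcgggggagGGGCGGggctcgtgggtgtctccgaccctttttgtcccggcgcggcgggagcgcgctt
EHMT1 (chr9:137618755-137619004, plus strand): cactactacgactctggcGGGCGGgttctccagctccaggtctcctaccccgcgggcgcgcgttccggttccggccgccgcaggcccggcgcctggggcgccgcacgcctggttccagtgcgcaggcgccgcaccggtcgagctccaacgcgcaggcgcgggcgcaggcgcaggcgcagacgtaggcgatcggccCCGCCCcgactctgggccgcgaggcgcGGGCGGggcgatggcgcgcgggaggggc
RCOR1 (chr14:102592399-102592648, plus strand): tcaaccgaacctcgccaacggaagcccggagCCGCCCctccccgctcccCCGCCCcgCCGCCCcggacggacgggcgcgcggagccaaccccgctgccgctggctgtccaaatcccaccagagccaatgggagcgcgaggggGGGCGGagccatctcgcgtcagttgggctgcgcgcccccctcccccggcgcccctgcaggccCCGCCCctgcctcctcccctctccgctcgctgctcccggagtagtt
RCOR3 (chr1:211259116-211259365, plus strand): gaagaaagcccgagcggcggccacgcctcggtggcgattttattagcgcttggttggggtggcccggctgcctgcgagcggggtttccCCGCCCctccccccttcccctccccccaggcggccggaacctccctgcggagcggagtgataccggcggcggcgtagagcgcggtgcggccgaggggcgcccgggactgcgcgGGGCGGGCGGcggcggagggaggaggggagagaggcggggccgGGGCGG
KDM1B (chr6:18155172-18155421, plus strand): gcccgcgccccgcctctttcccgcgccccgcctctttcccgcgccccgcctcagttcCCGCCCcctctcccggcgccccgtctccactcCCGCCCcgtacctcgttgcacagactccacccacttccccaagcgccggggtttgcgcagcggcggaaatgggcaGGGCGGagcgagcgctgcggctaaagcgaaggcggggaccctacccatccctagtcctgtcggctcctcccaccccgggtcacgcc

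The windows had more G and C than the median protein-coding window (62.0%) whether or not a peak lay on them. Those of KDM1A and EHMT2 lay close to that median. G and C made up 64.0% of the window of KDM1A, 78.8% of that of EHMT1, 76.4% of that of RCOR1 and 77.2% of that of RCOR3. In the genes without a start peak the share was 73.6% at KDM1B, 74.8% at GLYR1 and 63.2% at EHMT2, so the ranges with and without a peak overlap. Among all protein-coding windows the median was 68.0% in those covered whole and 58.8% in those with no base covered. GGGCGG occurred in all 8 windows of these 7 genes, from 1 match at KDM1A, EHMT2 and GLYR1 to 5 at RCOR1, and in 42.6% of the 35116 windows in the table. CACGTG, the E-box, occurred 2 times at GLYR1 and 1 time at EHMT2, in none of the other windows of these genes, and in 6.34% of all windows. No base was shared between the motifs. Both motif shares are over all windows, protein-coding or not, whose median G and C was 58.0%, against 62.0% in the protein-coding ones.

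**Figure D1:**
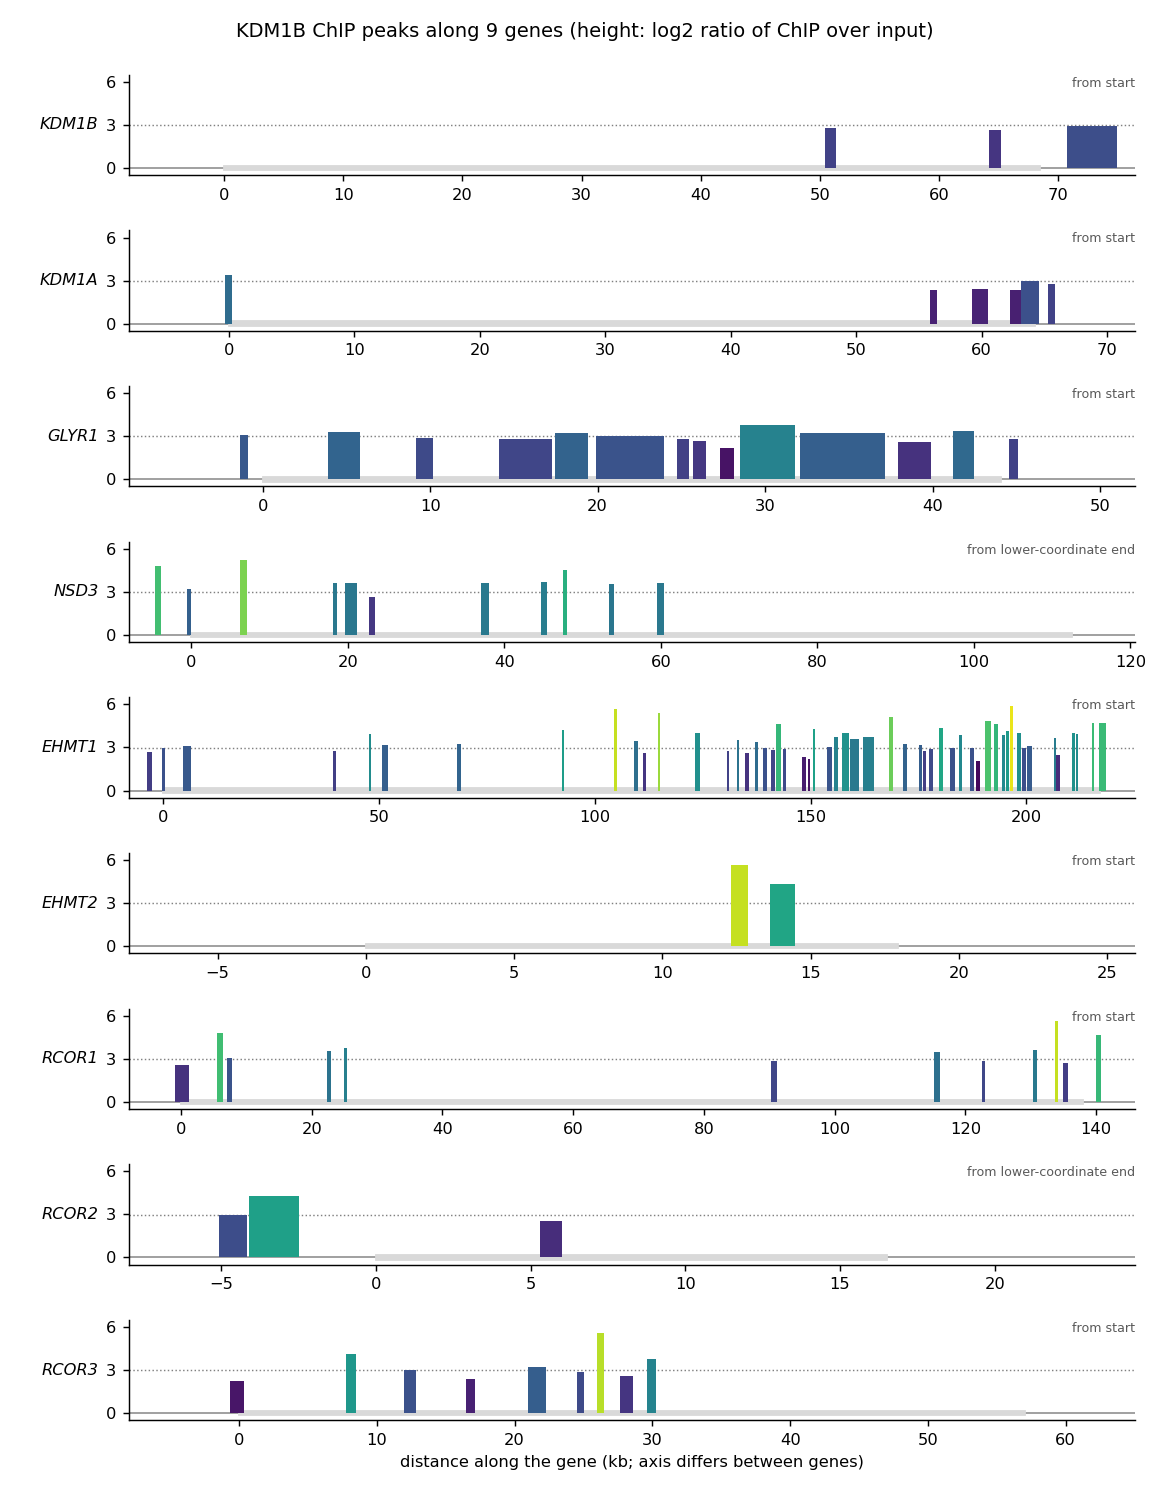
Peaks along each of the 9 genes, with the distance from the gene's start in kb on the horizontal axis (from the lower-coordinate end for NSD3 and RCOR2) and the log2 ratio of ChIP over input as the height and colour of each peak. Grey bars are the gene spans and the dotted line is the median of all peaks (2.99). Peaks fill most of GLYR1 and crowd the far part of EHMT1, while the first 50.4 kb of KDM1B are empty.

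The peaks of KDM1B itself were weak, and their number was close to that of like-length genes. Of its 68.4 kb (chr6:18155422-18223854), 2 peaks lay inside and 1 within 5 kb of its end. The inner peaks had log2 ratios of 2.79 (chr6:18205856-18206813) and 2.62 (chr6:18219598-18220586), 74.4% and 94.5% of the way along the gene. Both lie below the median of 2.99 for all 78536 peaks. The peak past the end, 4240 bp wide with a log2 ratio of 2.94, has its midpoint in the neighbouring gene DEK, which encodes a chromatin-associated protein. The edge of the nearest peak lay 20544 bp from the start of KDM1B. With 3 peaks KDM1B exceeded 251 of its 500 like-length genes, which had a median of 2, and 220 had more. Peaks covered 5.94% of KDM1B with 5 kb on each side, more than in 337 of the 500, whose median was 2.44%. Of the gene alone they covered 2.84%, more than in 280 of the 500, whose median was 1.98%. Its strongest ratio was lower than that of 344 of the 388 like-length genes with a peak, whose median strongest ratio was 3.93.

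The tagged KDM1B came from a transgene, whose reads can align to the exons of the KDM1B locus in both libraries. Exon positions were not used here, so whether the 2 inner peaks of 957 and 988 bp lie on exons was not tested. The peaks of KDM1B are given with this limit.

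The paralog KDM1A had peaks at its 2 ends and none between. Its start peak (chr1:23019121-23019706) had a log2 ratio of 3.40 and its midpoint 54.5 bp before the start. The next peak began 55.7 kb further on, in the last 2 of 10 equal parts of the 64.2 kb gene. There, 4 peaks had log2 ratios of 2.37, 2.40, 2.35 and 2.97, and another with 2.79 lay past the end in LUZP1. The start peak was thus the strongest of the 6, the only one above the median of all peaks. KDM1A exceeded 317 of 500 like-length genes in number of peaks, and its strongest ratio was lower than that of 275 of 390. Peaks covered 7.13% of KDM1A with 5 kb on each side, more than in 334 of the 500.

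GLYR1, the cofactor that links KDM1B to H3K36-methylated chromatin, was the most widely covered of the 9 genes. Peaks took up 26.1 kb of its 44.1 kb (59.3%), and 50.2% of the gene with 5 kb on each side. Of the 500 like-length genes 40 were covered more by the second measure, and their median was 4.42%. The coverage came from 14 peaks, of which 12 lay inside the gene, in 9 of its 10 equal parts (all but the first). Their median width was 1607 bp against 804 bp for all peaks.

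The widest of them (chr16:4810115-4815220) spanned 5105 bp with a log2 ratio of 3.20. Next to it lay the strongest (chr16:4815496-4818777), with 3281 bp and 3.76, and a peak of 4025 bp with 3.03 lay near the middle of the gene. Peaks of 4 kb or wider made up 2.17% of the list. The ratios in and around GLYR1 were moderate, from 2.196 to 3.76 with a median of 2.96, and 7 of the 14 exceeded the median of all peaks. The gaps between neighbouring peaks had a median of 817 bp, and 8 of the 13 were 1 kb or less. With such peaks joined, GLYR1 had 6. No peak midpoint lay within 1 kb of its start, and the nearest peak edge was 855 bp away in UBN1, the neighbouring gene.

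NSD3, the H3K36 methyltransferase of the complex, had 11 peaks (chr8:38269704-38382271, 113 kb). Counted from its lower-coordinate end, 8 of its 9 inner peaks lay before the middle and 1 just past it. The highest midpoint was 59.97 kb from that end, and 52.6 kb beyond it held none. Among the 2225 genes of known strand with at least 8 peaks inside, 17.3% had at least 75% past the middle and 6.16% before it. Their ratios were high for the list, with a median of 3.60 and 10 of 11 above the median of all peaks. The strongest had a log2 ratio of 5.21, a linear ratio of 37.0, and lay 5.94% of the way in (chr8:38275985-38276801). It was followed by one of 4.79 outside the gene, in the overlapping genes DDHD2 and PLPP5, and one of 4.52 at 42.5%. Of the other 8 peaks, 7 had ratios between 3.21 and 3.68 and 1 had 2.65. NSD3 had more peaks than 387 of its 500 like-length genes.

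EHMT1, one of a pair of H3K9 methyltransferases, held 53 of the 113 peaks assigned to the 9 genes. It spans 217 kb near the end of the long arm of chromosome 9 (chr9:137619005-137836127). Only 7 of the 500 like-length genes had more peaks, and their median was 2. Peaks covered 21.5% of EHMT1 with 5 kb on each side, against a median of 0.73% in the like-length genes, of which 15 were covered more. EHMT1 also had more peaks than all 50 of the genes nearest in span on its own chromosome.

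The peaks of EHMT1 were crowded past the middle of the gene. In its 10 equal parts, from start to end, it held 2, 1, 2, 1, 2, 4, 11, 7, 11 and 10 peaks, so 8 lay before the middle and 43 after it. Among the 2225 protein-coding genes of known strand, 10 kb or longer and with at least 8 peaks inside, 385 (17.3%) had at least 75% of them past the middle, as EHMT1 did. Its start peak (chr9:137618627-137619447) had a log2 ratio of 2.99, at the median of all peaks. From the first to the fourth part the ratios ran from 2.74 to 3.93.

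The strongest peaks came later. The highest, 5.86 or a linear ratio of 58.2, lay 90.5% of the way along (chr9:137815153-137815897) at rank 260 of the list. The others above 5 had 5.65 at 48.2% (chr9:137723391-137724062), 5.40 at 52.9% (chr9:137733680-137734180) and 5.10 at 77.7% (chr9:137787237-137787984). The last of these has its midpoint in LOC651337, a lncRNA gene inside EHMT1. A peak of 4.71 spanned the last bases of EHMT1, with its midpoint just outside. Weak peaks lay among the strong ones: the lowest ratio of all 113, 2.09, was found in the ninth part of EHMT1, whose highest was 4.86.

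EHMT2, which forms a heterodimer with EHMT1, had 2 peaks in 17.9 kb (chr6:31879759-31897698). Both were strong and lay close together. The stronger had a log2 ratio of 5.65 (chr6:31884794-31885393), 70.3% of the way from the start, and the other 4.36 (chr6:31883235-31884056), at 78.3%, where EHMT2-AS1, an antisense lncRNA gene, overlaps it. The 5.65 equals the 99th percentile of the list and exceeded the strongest ratio of 337 of the 354 like-length genes with a peak. In number of peaks EHMT2 was ordinary, above 232 and below 206 of 500.

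**Figure D2:**
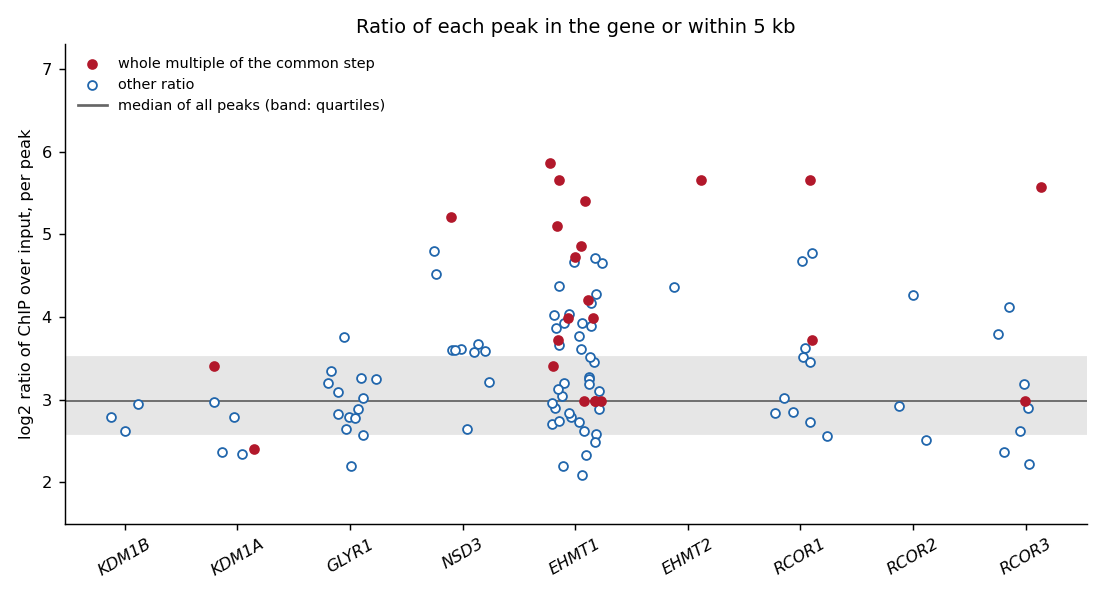
Log2 ratio of ChIP over input of each of the 113 peaks, by gene, with the median (line) and quartiles (band) of all 78536 peaks. Filled points are ratios at whole multiples of the common step. All 8 peaks above 5 are filled, and the 3 peaks of KDM1B lie below the line. The step was chosen so that the highest ratios of the list are mostly whole multiples.

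The 3 CoREST genes differed in where their peaks lay. RCOR1, the CoREST founding member (chr14:102592649-102730561, 138 kb), had 12 peaks, most of them toward its ends. The start peak was wide and weak, 2121 bp with a log2 ratio of 2.56, and 4 more within 25.1 kb of the start had 4.77, 3.02, 3.52 and 3.72. A gap of 64.9 kb followed. Then a peak of 2.84 lay 65.8% of the way along, and 6 more between 83.9% and just past the end, with 5.65 the strongest (chr14:102726288-102726797). RCOR1 exceeded 393 of 500 like-length genes in number of peaks.

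RCOR3 (chr1:211259366-211316385, 57.0 kb) held peaks from its start to just past its middle. The start peak was the weakest of the 9, with 2.23, and the others had 4.12, 2.99, 2.36, 3.19, 2.90, 5.57, 2.62 and 3.79 in order along the gene. The peak of 5.57 (chr1:211285334-211285834) lay 46.0% of the way along. The last midpoint was 29.96 kb from the start, and the remaining 27.1 kb were empty. Of its 8 inner peaks 7 lay before the middle. At least 75% before the middle was found in 137 of the 2225 genes with at least 8 peaks inside (6.16%). RCOR3 had more peaks than 355 of 500 like-length genes.

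RCOR2 (chr11:63911230-63927762, 16.5 kb) had 1 inner peak, with 2.51 (chr11:63916519-63917234). The 2 others assigned to it, with 4.26 and 2.93, have their midpoints in MARK2, the neighbouring gene for a microtubule affinity kinase. With 1 inner peak RCOR2 exceeded 200 of 500 like-length genes and 222 had more, so only the flanks put it above the median.

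**Figure D3:**
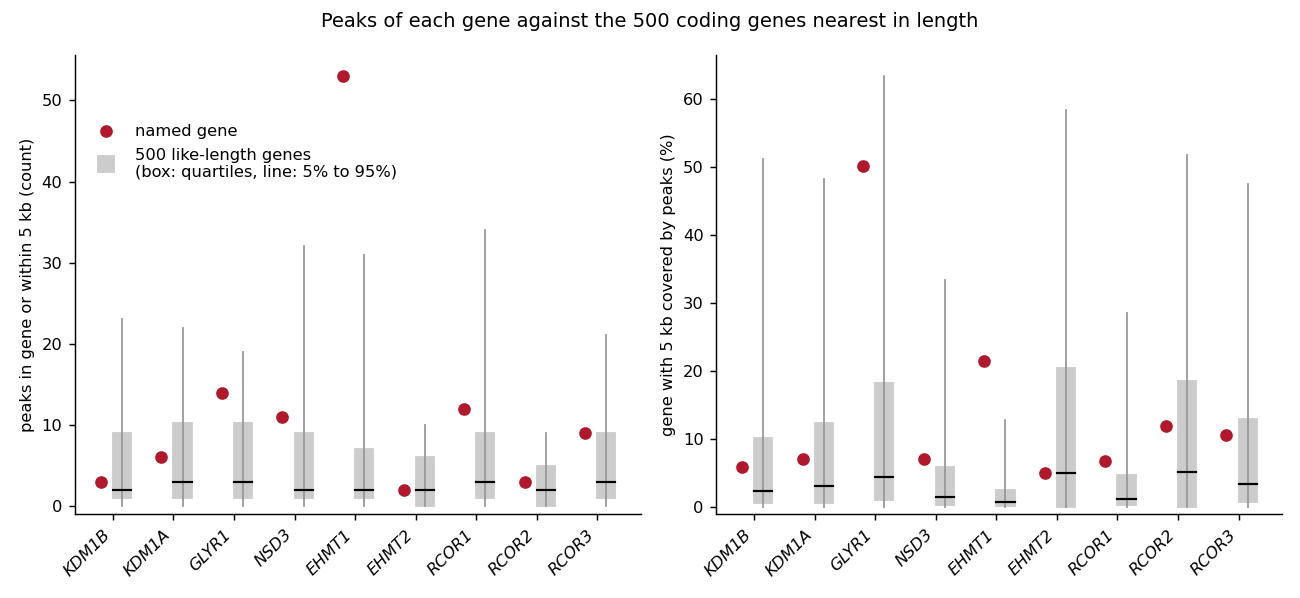
Number of peaks (left) and percent of the gene with 5 kb covered by peaks (right) for each of the 9 genes (red points), beside the 500 protein-coding genes nearest in span (black line: median, box: quartiles, thin line: 5th to 95th percentile). EHMT1 (53 peaks, 21.5%) lies above the thin line in both, GLYR1 (50.2%) lies above the box, and EHMT2 lies on its median in number.

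In all, 8 of the 9 genes had more peaks than the median of their like-length genes, a condition met by 44.1% of all protein-coding genes. EHMT2 equalled it. The count was 7 with no flank, where KDM1B and RCOR2 equalled the median, and 6 with only the stronger part of the list. In the 9 genes that part kept the peaks with a log2 ratio at or above 2.99, the median of all peaks. Starts with a peak within 1 kb were found in 4 of the 7 genes of known strand, against 36.5% of all 15813 such genes, and ends in 3 (KDM1A, GLYR1 and EHMT1), against 17.4%. In the sets of like-length genes 34.2% to 44.5% had a start peak and 6.60% to 20.9% an end peak. The end peak of GLYR1, 744.5 bp past its end, has its midpoint in the neighbouring gene ROGDI. KDM1A and EHMT1 had both a start and an end peak, against 10.4% of all. With so few genes chosen by name, these counts describe the genes and were not tested.

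Peak density inside each gene was set against the 500 kb on each side of it, with exact Poisson 95% intervals that cover counting error only. EHMT1 had 23.5 peak midpoints per 100 kb (17.5 to 30.9) inside, against 6.13 (4.69 to 7.87) around it. That ratio of 3.83 was higher than in 448 of 488 like-length genes. RCOR3 had 14.0 per 100 kb (6.06 to 27.6) inside, against 1.40 (0.765 to 2.35) around it, and its ratio of 10.02 was higher than in 467 of 497.

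GLYR1 had 27.2 (14.1 to 47.5) inside, against 11.6 (9.59 to 13.9) around it, a ratio of 2.35 that was higher than in 304 of 494. The intervals inside and around did not overlap for these 3 genes, and GLYR1 sits in a stretch that is itself dense. How many other protein-coding genes show the same was not counted, so this does not set the 3 genes apart. The intervals treat midpoints as independent, so for clustered peaks they are too narrow, and no difference was tested. Gaps of 1 kb or less between neighbouring peaks were 21 of 52 at EHMT1, 8 of 13 at GLYR1 and 1 of 8 at RCOR3. EHMT2 had 11.1 (1.35 to 40.3) inside, against 0.8 (0.345 to 1.58) around it, and its ratio of 13.9, on 2 peaks, was higher than in 482 of 496. NSD3 had 7.995 (3.66 to 15.2) inside, against 5.40 (4.06 to 7.05) around it, and its ratio of 1.48 was higher than in 337 of 495. For both genes the intervals overlapped.

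The other 4 genes had lower densities inside than around. KDM1B had 2.92 (0.354 to 10.6) inside, against 3.80 (2.69 to 5.22) around it, and KDM1A had 6.23 (1.70 to 15.9), against 8.70 (6.97 to 10.7). RCOR1 had 7.98 (3.98 to 14.3) inside, against 14.6 (12.3 to 17.2) around it, and RCOR2 had 6.05 (0.153 to 33.7), against 13.9 (11.7 to 16.4). All 4 pairs of intervals overlapped, although at RCOR1 the density around the gene lay above the upper limit inside it.

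**Figure D4:**
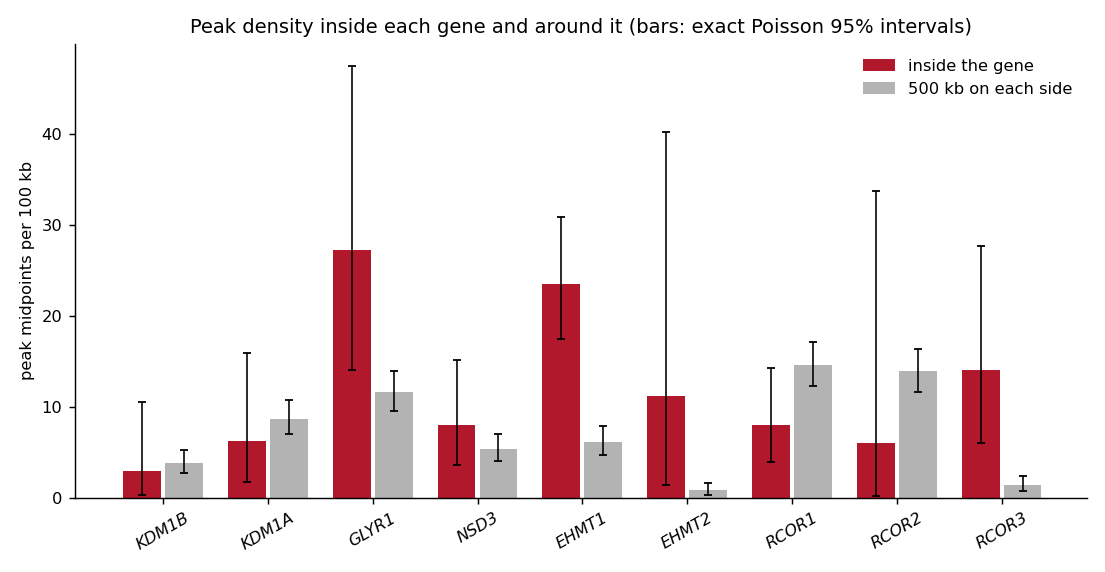
Peak midpoints per 100 kb inside each gene (red) and in the 500 kb on each side (grey), with exact Poisson 95% intervals. EHMT1 (23.5 against 6.13), GLYR1 (27.2 against 11.6) and RCOR3 (14.0 against 1.40) have intervals that do not overlap. The intervals treat midpoints as independent and are too narrow where peaks cluster. How many other protein-coding genes have intervals that do not overlap was not counted.

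Over the 9 genes the 113 peaks had a median log2 ratio of 3.25 (quartiles 2.83 and 3.93), against 2.99 (2.58 and 3.52) for the whole list. EHMT1 alone supplies 53 of them. Some linear ratios in the list are whole multiples of a common step of 2.64. An input of a single read, among other cases, could give such a multiple, which was not tested. Whole multiples made up 23 of the 113 peaks (20.4%) and 12.4% of the list. All 8 peaks above 5 (in NSD3, EHMT1, EHMT2, RCOR1 and RCOR3) were whole multiples, and the read counts behind them are unknown. As 4 of the 8 are in that highest 1%, their place on the step follows largely from its choice. The share of whole multiples over all peaks above 5 in the list is not given here. GLYR1, KDM1B and RCOR2 had no whole multiple among their 14, 3 and 3 peaks.

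Other genes of the same pathways also held peaks. Of 15 genes of the CoREST complex and its regulators 13 had a peak, against 67.5% of all protein-coding genes, and 12 had more than the median of their like-length genes, against 44.1%. Their median of 5 peaks a gene, against 2 for all protein-coding genes, goes with a median span of 38.9 kb, against 24.2 kb. Strong peaks lay at GSE1 (5.05), the transcription factor gene GFI1 (4.79) and HMG20B (4.72). HDAC2 and INSM1 had no peak, while HDAC1, the other deacetylase of the complex, had 16. All 3 listed H3K4 demethylases of the KDM5 family had a peak, against the same 67.5% of all protein-coding genes. Their median span was 83.9 kb, against 24.2 kb. Log2 ratios reached 5.76 at KDM5C, 4.65 at KDM5B and 4.16 at KDM5A.

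Of 16 genes that write, read or erase H3K36 methylation 15 had a peak (median 14), against the same 67.5%, and 14 exceeded the median of their like-length genes, against 44.1%. Their median span was 83.4 kb. HDGFL2 (6.10), PSIP1 (5.57), NSD2 (5.49) and DNMT3B (4.99) had the strongest, and SETMAR had none. NSD1 and NSD2, the other members of the NSD family, had 29 and 31 peaks against the 11 of NSD3, in genes of 168 and 111 kb. All 15 genes of H3K9 methylation, with a median span of 50.7 kb, had a peak (median 9), and 13 exceeded the median of their like-length genes, again beside 67.5% and 44.1% of all protein-coding genes. The strongest peaks lay at KDM4B (5.57), SUV39H1 (5.49), PRDM2 (5.49) and SETDB1 (4.86).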

How the data were processed

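Chromatin was crosslinked, sonicated and precipitated with anti-FLAG antibody, per the labels' protocols. Per the submitters' processing notes, the tools were Trim Galore (0.4.5) and Bowtie2 (2.2.9), and the build hg38. Not given in the sources used here are the program that called peaks, its thresholds and the scaling of the libraries. The authors deposited 1 list of 78536 peaks, each with the log2 ratio of ChIP to input, without read counts or p-values. That the scale is log2 was read from the values. The step is the most common linear ratio divided by 3, the smallest whole number that makes at least 95% of the highest 1% of ratios whole multiples (tolerance 0.0001).

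RefSeq (GRCh38.p14) gave gene spans and, in a table of promoters, strand and sequence. Midpoints were counted per gene with Python 3.11.15, pandas 2.3.3 and SciPy 1.17.1, and each gene was ranked among 250 shorter and 250 longer protein-coding genes. Counting was tested on simulated peaks in 200 genes. The genes, lists and rules were chosen with earlier results of these data known, so counts over them carry no test. Up to 4 genes of each list are named by their strongest peak. A gene that this rule names is not reported here. HDAC1, HDAC2, INSM1, SETMAR and NSD1 were named after their values were seen.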

Additional observations from a re-analysis of the deposited data

How the results depend on the processing

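No paired analysis was possible because each group held 1 library. All 9 genes kept a peak with 1 kb or no flank, with any overlap of 1 bp, with neighbouring peaks joined within 1 kb, and without peaks at whole multiples (chosen after seeing the data). With only the stronger part of the list 8 did, and KDM1B had none. That restates that its 3 peaks lie below the median log2 ratio of 2.99. The 113 peaks became 73 with the stronger part and 75 after joining, the cause of both being fewer peaks by construction. They numbered between 90 and 114 otherwise. EHMT1 kept 32 to 53 peaks. Ranks were not computed with peaks joined, with 1 kb of flank or with any overlap of 1 bp. In the settings with ranks, EHMT1 exceeded 97.2% to 100% of its like-length genes. EHMT2 exceeded 33.4% to 64.0%, KDM1A 34.4% to 64.0% and KDM1B 0% to 64.0%, so their places are the least settled. The number of genes above the median of like-length genes was 7 among all genes similar in span by a fixed ratio (all but KDM1B and EHMT2) and with no flank (all but KDM1B and RCOR2). It was 6 with the stronger part of the list (all but KDM1B, KDM1A and RCOR2), 8 without whole multiples, and 9 among the 50 genes nearest in span on the same chromosome. Unknown depth means that stretches without a peak were not detectable as enriched, not that KDM1B is absent there.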

Other observations

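EHMT2 lies in a stretch of chromosome 6 with 61 other protein-coding genes within 500 kb, of which 8 had a peak in the gene or within 5 kb. None of the 123 other genes with at least as many neighbours had fewer peaks per 100 kb around them than EHMT2, with 0.8. The cause was not tested.

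Peaks between 5 and 10 kb outside the 9 genes numbered 13, as many as the 13 in the flanks up to 5 kb. The flank peak farthest out lay 4629.5 bp from RCOR2 (log2 ratio 2.93), and the nearest left out lay 5449.5 bp from it (3.25). The strongest left out, 8016 bp past the end of RCOR1 (chr14:102738078-102739078), had a log2 ratio of 6.53, at rank 25 of the list, and was a whole multiple of the step. No protein-coding or lncRNA gene covers its midpoint.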
